A study of Mus musculus with 8 samples.

Results

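The regions described here are stretches of open chromatin that the deposited ATAC-seq peak list of the mouse kidney cell line mK3 holds and that of the line mK4 does not. A peak was chosen by overlap alone: it is in the mK3 list, lies on chromosomes 1 to 19 except 3, 7, 14 and 15, and shares no base with any mK4 peak. The rule selected 4788 of the 17257 mK3 peaks on these 15 chromosomes, or 27.75%. The other 12469 mK3 peaks are called shared below, and 13243 mK4 peaks on the same chromosomes, listed in mK4 only, are used for comparison. Both lines are labelled as wild type and untreated, were grown in DMEM with 10% FBS, and derive from the metanephric mesenchyme. By their labels, mK3 is the uninduced line, and mK4 has differentiated in the epithelial direction. The data are 3 RNA libraries and 1 ATAC-seq library of each line, so the peaks have no replicate check. Each line is a single cell line, and separate cultures are not stated for the RNA libraries. The p-values below rest on the scatter of those 3 libraries per line, part or all of which may be technical.

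In ATAC-seq a transposase cuts DNA that is not wrapped in nucleosomes, so peaks mark active promoters and distal elements such as enhancers and insulators. Promoters of broadly expressed genes tend to be open in most cells, while distal elements differ more between cell types. The metanephric mesenchyme gives rise to nephron epithelium after a signal from the ureteric bud, and its stromal part gives rise to interstitial fibroblasts, mural cells and other matrix-producing cells.

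The markers of the labelled cell types were checked first. Summed over 9 epithelial genes, RNA was 0.183 to 1.1 CPM (counts per 1000000 gene counts of the library, after TMM scaling) in the mK3 libraries and 0.451 to 1.32 in the mK4 libraries, and Cldn3, Cldn4, Cldn7 and Krt18 were at 0 in all 6. The epithelial label of mK4 was thus not matched by these markers. The sum of 10 metanephric mesenchyme and nephron progenitor genes was 39.6 to 44.4 CPM in mK3 and 224 to 301 in mK4, with Hoxd11 at 0. For 6 renal stroma genes it was 297 to 357 CPM in mK3 and 128 to 146 in mK4, with Tcf21 at 0. These sums did not hold for each member. Of the stroma genes, Meis1 averaged 68.1 CPM in mK3 against 17.2 in mK4. By contrast, Foxd1 averaged 2.56 against 4.84 and Tbx18 31.5 against 46.8. Of the progenitor genes, Osr1 averaged 11.2 CPM in mK3 against 2.25 in mK4, opposite to the sum. Endothelial markers reached 8.01 and 14.5 CPM, leukocyte markers 1.86 and 1.77 and podocyte markers 28.3 and 27.9, each as the highest library of mK3 and of mK4. RNA libraries held 137559391 to 152952351 counts. Among all 20405 tested genes, 19.5% were called higher in mK3 and 20.8% lower, by edgeR's quasi-likelihood test at an adjusted p under 0.05. These calls, which the choice of peaks did not use, are what "higher" and "lower" mean for RNA below. In bulk libraries fewer expressing cells and less RNA per cell cannot be told apart.

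The files give no sequence of the peaks themselves, so sequence is shown for promoters that such a peak overlaps. The 6 printed are those the RNA results turn on: matrix and contractile genes that were higher in mK3, Medag, which is among the genes with the most of these peaks, and Col6a5, which has such a peak and was higher in mK4. Each is the 250 bases before the RefSeq start, on the gene's own strand (5′ to 3′), from GRCm38.p6, which is mm10. Capitals mark matches on either strand to any of 16 motifs, which can overlap. Those searched were the motif of AP-1 (letters TGANTCA), that of CRE (letters TGACGTCA), that of TEAD (letters CATTCC), that of RUNX (letters TGTGGT), a Twist-type E-box (letters CAGATG), that of ETS factors (letters CCGGAA), that of NF-Y (letters CCAAT) and the GC box (letters CCGCCC). The others were that of NFI (letters TTGGCA), the CArG box of serum response factor, and those of FOX (letters TGTTTAC), HNF1 (letters GTTAAT), the GATA family (letters AGATAA), the STAT proteins (letters TTCNNNGAA), YY1 (letters AAGATGGCG) and the CTCF core (letters CCANNAGGG).
Thbs2: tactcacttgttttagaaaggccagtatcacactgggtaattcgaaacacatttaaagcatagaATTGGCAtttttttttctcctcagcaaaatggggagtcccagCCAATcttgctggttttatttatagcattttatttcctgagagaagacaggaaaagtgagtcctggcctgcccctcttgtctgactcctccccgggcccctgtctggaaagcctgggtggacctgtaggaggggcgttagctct
Col1a2: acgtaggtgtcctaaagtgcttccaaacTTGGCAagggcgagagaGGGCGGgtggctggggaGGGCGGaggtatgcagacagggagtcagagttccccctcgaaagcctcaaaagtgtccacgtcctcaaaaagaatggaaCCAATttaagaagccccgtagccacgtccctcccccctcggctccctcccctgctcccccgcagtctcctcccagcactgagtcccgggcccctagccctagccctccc
Myl9: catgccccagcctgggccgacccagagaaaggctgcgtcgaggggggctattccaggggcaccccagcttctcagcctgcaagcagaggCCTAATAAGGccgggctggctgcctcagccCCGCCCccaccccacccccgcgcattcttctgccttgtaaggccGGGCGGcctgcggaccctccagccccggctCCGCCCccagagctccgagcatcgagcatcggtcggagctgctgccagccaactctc
Acta2: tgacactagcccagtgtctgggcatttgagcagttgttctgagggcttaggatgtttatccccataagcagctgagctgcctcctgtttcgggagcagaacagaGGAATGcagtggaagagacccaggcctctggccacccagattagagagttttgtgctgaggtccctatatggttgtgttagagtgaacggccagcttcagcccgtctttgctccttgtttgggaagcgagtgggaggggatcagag
Medag: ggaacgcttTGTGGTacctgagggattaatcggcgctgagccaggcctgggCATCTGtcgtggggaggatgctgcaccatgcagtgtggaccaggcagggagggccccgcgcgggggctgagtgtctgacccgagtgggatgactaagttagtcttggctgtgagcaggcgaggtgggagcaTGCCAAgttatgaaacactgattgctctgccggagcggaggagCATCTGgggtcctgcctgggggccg
Col6a5: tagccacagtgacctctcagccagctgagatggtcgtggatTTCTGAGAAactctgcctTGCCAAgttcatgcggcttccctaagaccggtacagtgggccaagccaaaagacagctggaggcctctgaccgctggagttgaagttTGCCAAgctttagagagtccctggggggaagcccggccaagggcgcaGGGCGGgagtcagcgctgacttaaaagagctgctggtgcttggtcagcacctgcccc

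A match is a description of letters and not a shown binding site. Only full matches to the searched motifs are marked, so a motif left unmarked is not shown to be absent. In Acta2, for example, ccctatatgg is close to a CArG box but is not marked. In Thbs2 (chr17:14694263-14694512, minus strand) the peak covers the NF-Y match at −144 and not the overlapping NF-Y and NFI matches near −185. In Col1a2 (chr6:4505368-4505617, plus strand) the peak covers the NF-Y match at −109. In Myl9 (chr2:156775214-156775463, plus strand) it covers the CArG box at −161 to −152. The TEAD match at −146 of Acta2 (chr19:34255374-34255623, minus strand), all 4 matches of Medag (chr5:149411499-149411748, plus strand) and all 4 of Col6a5 (chr9:105960644-105960893, minus strand) lie inside the peak.

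Over windows of 300 bases (250 before and 50 after the start), 574 of 24590 promoters had a peak of this kind and no other at their start. Their median was 21 CpG per window and 62.7% GC, against 24 CpG and 63.0% for promoters with a shared peak and 4 CpG and 49.3% for promoters with no peak. Fewer of the 574 held an ETS match than of the shared group, 19.9% against 33.5%, with 28.5% of promoters that had an mK4-only peak alone and 15.5% of all promoters. The NF-Y letters were in 29.8% against 43.9% of the shared group, 37.3% of all and 31.3% of those with an mK4-only peak alone. The CTCF core was in 9.58% against 6.04%, with 6.89% for mK4-only peaks and 6.0% of all, and the CArG box in 11 promoters, 1.92% against 1.19% of both the shared and the mK4-only group, with 1.55% of all. AP-1 letters were in 5.57%, against 4.97% of the shared group, 8.42% of the mK4-only group and 7.77% of all promoters. Where a promoter of this group had 5 or fewer CpG, 61.29% of 31 tested genes were higher in mK3, and with 6 to 14 CpG 54.0% of 100, while with 15 or more 35.86% of 304 were. Over all promoters of tested genes the same classes gave 21.6%, 22.07% and 23.44%.

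The regions listed in mK3 only were mostly weak peaks. Their median fold enrichment, the peak caller's ratio of signal over local background as the authors deposited it, was 3.48, with a range from 1.73 to 16.2. Shared peaks had a median of 4.67 in the mK3 list. Median width was 266 bases against 398 for shared peaks, and the median −log10 q was 5.61 against 12.4. Peaks listed in mK4 only stood in the same relation to shared peaks of the mK4 list, with a median fold enrichment of 4.09 against 5.97 and a median width of 281 against 459 bases. When all mK3 peaks on these chromosomes were put into 5 classes of about equal size by fold enrichment, 56.87% of the weakest class were listed in mK3 only, then 38.13%, 24.3% and 14.08%, and 5.27% of the strongest. A peak missing from the mK4 list is not shown to lack signal there, since the lists hold peaks past the caller's threshold only. The mK4 list was also longer, with 25805 peaks on these chromosomes.

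Most of these regions lay 5 kb or more from any mK4 peak, as did most mK4-only peaks from any mK3 peak. The nearest mK4 peak was under 500 bases away for 487 regions (10.17%) and 500 to 5000 bases away for 856 (17.88%). It was between 5 and 50 kb away for 2262 (47.24%). It was 50 to 100 kb away for 433 (9.04%), and farther for 750 (15.66%). For the peaks listed in mK4 only, the nearest mK3 peak was at 5 to 50 kb for 53.02%, at 50 to 100 kb for 13.86% and farther for 11.21%. At the edge of the rule, the 5 regions closest to an mK4 peak had gaps of 0, 6, 9, 14 and 19 bases, with fold enrichments from 2.63 to 3.24. The 5 peaks just outside it shared 1, 3, 4, 4 and 7 bases with an mK4 peak, with fold enrichments from 2.95 to 5.42.

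Compared with shared peaks, fewer of these regions were at gene starts and more lay inside or between genes. Of the 4788, 1215 (25.38%) lay within 1 kb of a gene start, against 54.11% of shared peaks and 20.14% of the peaks listed in mK4 only. A further 2010 (41.98%) lay in a gene away from its start, 1281 (26.75%) outside genes within 50 kb of one, and 282 (5.89%) over 50 kb from any gene in the RefSeq annotation. The last share was 1.82% for shared peaks and 2.62% for the peaks listed in mK4 only. Start means the 5′ end of a gene, or either end where the annotation gives no strand, plus the start of its RefSeq promoter where one is given.

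The highest fold enrichment, 16.2, belonged to chr1:171486651-171486974, which lay 16676 bases from the nearest start of a protein-coding gene, Alyref2. Of the 10 highest, 2 lay at the start of a protein-coding gene. One was chr16:56886067-56886617, with a fold enrichment of 10.4, at 79 bases from the start of Tmem45a, which encodes a transmembrane protein. Its RNA was 284, 363 and 289 CPM in the mK3 libraries and 0, 0.342 and 0 in the mK4 libraries, with a log2 fold change (mK3 over mK4) of 11.37 ± 1.21 (SE, n = 3 per line) and an adjusted p of 0.000741. The other was chr19:12572721-12573582, with a fold enrichment of 9.49, at 122 bases from the start of Fam111a, which encodes a protease that acts in DNA replication and against viruses. Fam111a measured 158, 162 and 147 CPM in mK3 and 3.36, 3.76 and 4.03 in mK4, a log2 fold change of 5.39 ± 0.11 (adjusted p = 4.65e-06). In both genes the libraries of the lines were far apart, and the other 8 peaks lay 16676 to 789190 bases from a coding start.

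Genes with one of these peaks at the start were called higher in mK3 more often than tested genes as a whole. RefSeq lists 1380 such genes, of which 1160 were in the count table and 1029 passed the filter on low counts. Of the 1029, 388 (37.71%) were higher in mK3, 151 (14.67%) were lower and 490 were not called, with a median log2 fold change of 0.29. Among all 12741 tested genes on the same chromosomes, 21.7% were higher and 19.9% lower, with a median of 0.02. A gene expressed in mK3 alone passes the filter through its mK3 libraries, so the counts describe expressed genes and not all genes with such a peak. The classes of gene were compared by these shares alone, with no test between them.

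The share was largest where the start held no other peak. For 567 genes with a peak of this kind alone at the start, 252 (44.44%) were higher in mK3 and 64 (11.29%) lower, with a median log2 fold change of 0.49. For 462 genes that had a shared or an mK4-only peak at the start as well, 29.44% were higher and 18.83% lower. Starts with a shared peak and none of these gave 23.26% and 19.58% over 6349 genes, close to all genes. At 1204 starts with an mK4-only peak alone the order was the opposite, 13.79% higher and 35.47% lower. In a fit of genes that reached 1 CPM in each library, 361 genes with such a peak alone remained, of which 38.5% were higher and 16.07% lower, against 25.1% and 22.55% of all genes on these chromosomes under the same filter.

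**Figure D1:**
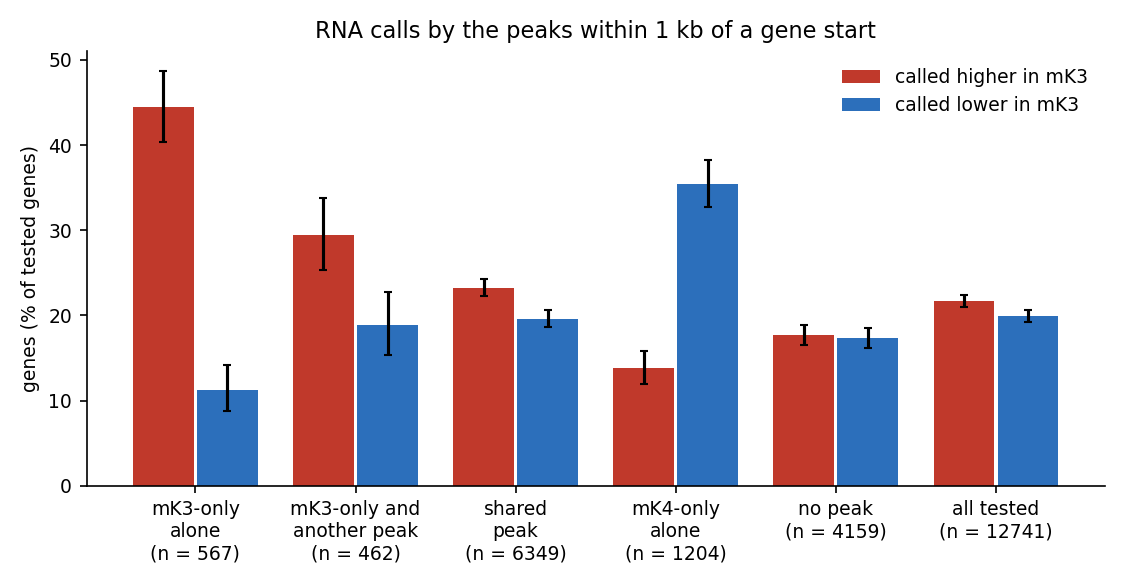
Share of tested genes called higher (red) or lower (blue) in mK3, in percent of each class, by the peaks within 1 kb of the gene start; bars start at 0 and lines are exact 95% binomial intervals, which cover the number of genes only, since genes are not independent. Genes with an mK3-only peak alone show 44.44% higher and 11.29% lower, and genes with an mK4-only peak alone show 13.79% and 35.47%.

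Stronger peaks at a start went with larger shares. Among the 567 genes, split into 3 classes of about equal size, those with the weakest start peaks (fold enrichment 2.42 to 3.33) had 35.08% higher in mK3, the middle class 41.49% and those with the strongest (4.03 to 10.4) 56.91%. Median log2 fold changes in the same order were 0.30, 0.38 and 1.1. The share higher in mK3 also fell with distance from the start to the nearest of these peaks: it was 29.31% at 1 to 5 kb, 23.27% at 5 to 20 kb, 22.97% at 20 to 50 kb, 19.48% at 50 to 200 kb and 17.5% beyond. The share lower in mK3 went from 14.67% within 1 kb to 22.6% beyond 200 kb.

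**Figure D2:**
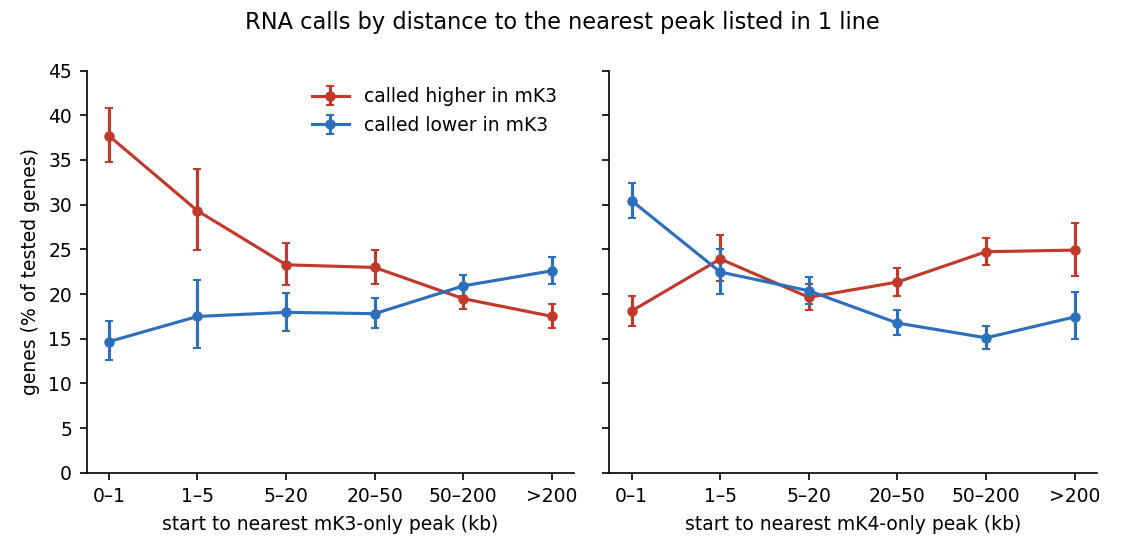
Share of tested genes called higher (red) or lower (blue) in mK3, in percent, by distance in kb from the gene start to the nearest mK3-only peak (left) or mK4-only peak (right); lines on the points are exact 95% binomial intervals over genes. On the left the red points go from 37.71% within 1 kb to 17.5% beyond 200 kb, and on the right the blue points are highest within 1 kb, at 30.44%.

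Under the naming rule, the 12 genes with a start peak of this kind and the largest fitted log2 fold changes towards mK3 were taken, and 11 of them were at 0 counts in all 3 mK4 libraries. The fitted change of a gene at 0 in a line depends on the prior count, so their order is not a ranking by measured fold. Folds for these 11 are lower bounds against a floor of 3 counts per library, 0.022 CPM in mK4. Colec12, a scavenger receptor with a collagen-like domain, measured 951, 996 and 995 CPM in the mK3 libraries and was at least 44613-fold higher. Its peak, chr18:9707400-9708384, had a fold enrichment of 5.42. Thbs2, which encodes the matrix glycoprotein thrombospondin 2, was the exception, with 0.242, 0 and 0 CPM in mK4 and 2876, 2685 and 2731 in mK3 (log2 fold change 15.12 ± 1.18, adjusted p = 0.000221). These are high and steady levels in mK3 beside levels at or near 0 in mK4.

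Another 6 of the 12 encode a protease inhibitor, enzymes, a small GTPase, a receptor and a membrane protein. Pi15, a secreted protease inhibitor, measured 218, 225 and 243 CPM in mK3, at least 10408-fold higher. Enpp1, the ectoenzyme that makes extracellular pyrophosphate and restrains mineralization, measured 89.1, 77.8 and 87.5 CPM, at least 3858-fold higher. Rhoj, a small GTPase of the Cdc42 family, measured 92.5, 70.8 and 79.4 CPM, and its peak spanned 868 bases over the start. Ror2, a receptor for Wnt5a, measured 56.7, 38.2 and 55.1 CPM, at least 2276-fold higher. Gucy1a2, a subunit of the nitric oxide receptor guanylate cyclase, measured 28.6, 35 and 47.8 CPM. Nkain2, which encodes a membrane protein that binds the sodium pump, measured 50.2, 53.8 and 45.7 CPM. In each of these 6 genes all mK4 libraries were at 0, with adjusted p by edgeR's quasi-likelihood test from 1.24e-05 (Pi15) to 0.000161 (Gucy1a2). The naming rule took only called genes whose libraries did not overlap between the lines, so neither trait is a separate result.

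The remaining 4 are a zinc finger regulator, a Wnt inhibitor and a pair of smooth muscle genes. Zfp521, a transcription cofactor of mesenchymal and neural progenitors, measured 102, 67.6 and 69.2 CPM in mK3. Trabd2b, a membrane protease that inactivates Wnt ligands and is also known as Tiki2, measured 101, 57.6 and 61.6 CPM. Tagln (SM22 alpha), an actin-binding protein of smooth muscle, measured 65.8, 63.4 and 64.7 CPM, at least 2941-fold higher. Myl9, the regulatory myosin light chain of smooth muscle, measured 59.6, 55.1 and 60.7 CPM, at least 2662-fold higher. The annotation gives no strand for Colec12, Pi15, Zfp521, Trabd2b and Tagln, so for these the peak is at one end of the gene and not shown to be at its 5′ end.

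Other genes had such a peak at the start and less RNA in mK3. Ikzf2, the transcription factor Helios, measured 2.53, 4.11 and 3.52 CPM in mK3 and 124, 118 and 103 in mK4, 33.9-fold higher in mK4 (adjusted p = 3.16e-05). Col6a5, a collagen VI chain, measured 0.348, 1.31 and 0.942 CPM against 46.8, 35.5 and 37.2, 45.9-fold higher in mK4 (adjusted p = 0.000447). Atp1b1, the beta subunit of the sodium pump, measured 12.9, 9.48 and 8.64 CPM against 89.6, 84.7 and 71.6. Pcdh1, a protocadherin, measured 1.16, 0.31 and 0.974 CPM against 14.7, 15.1 and 18.4. The naming rule also gave Afap1l2 (an actin filament adaptor), Bmf (a pro-apoptotic BH3-only protein), Spon2 (a secreted matrix protein) and Radil (a Rap effector in cell adhesion). In these mK4 was 7.63-fold to 8.68-fold higher. The rule took only called genes whose libraries did not overlap between the lines. Of the 8, Ikzf2, Col6a5, Afap1l2 and Spon2 had no other peak at the start, and Ikzf2, Spon2 and Pcdh1 have no strand in the annotation.

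**Figure D3:**
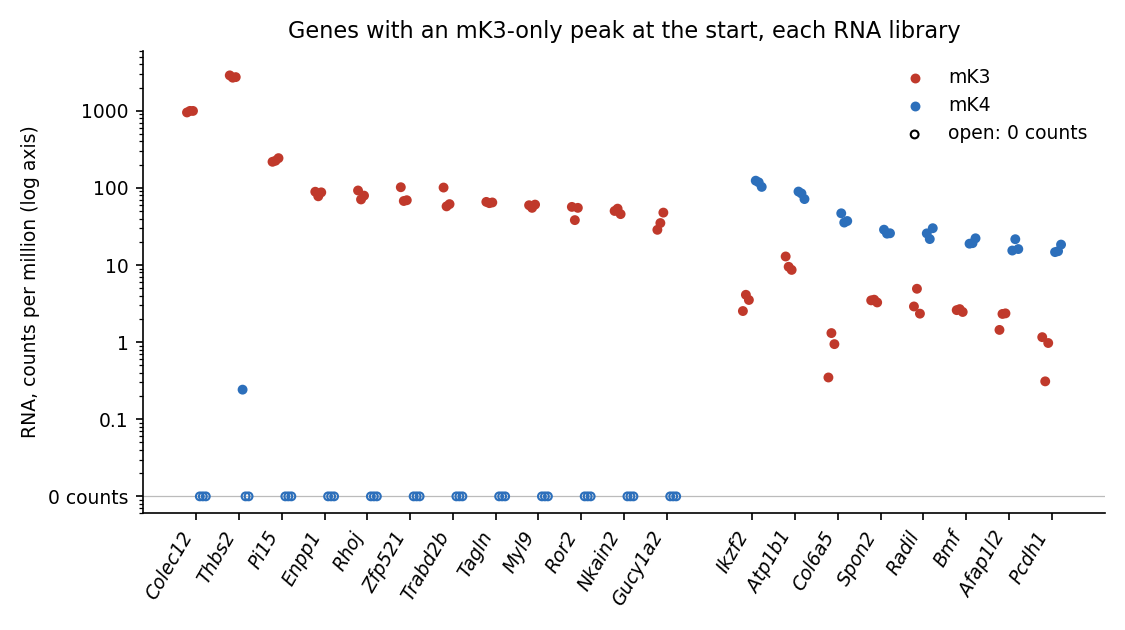
RNA of the 12 genes with an mK3-only start peak and the largest fitted log2 fold changes towards mK3 (left) and the 8 with the largest towards mK4 (right), in CPM on a log axis; each point is 1 library, and open points on the lowest line are libraries at 0 counts. On the left the mK4 libraries are at 0 except 1 of Thbs2, and on the right the mK3 points lie below the mK4 points for each gene.

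Extracellular matrix genes near these regions were mostly higher in mK3. Of 35 tested matrix genes, 28 were higher in mK3 and 2 lower, beside 21.7% and 19.9% of all tested genes on these chromosomes. At least 1 of these peaks lay in the gene or within 50 kb for 22, and 19 of those were higher and 1, Col12a1, lower. Of the 13 without one, 9 were higher and 1 lower. All 8 with such a peak at the start, Fbn1, Col1a2, Timp3, Fbln5, Vcan, Col8a1, Thbs2 and Lox, were higher in mK3. The median log2 fold change was 2.56 for the 22 and 1.97 for all 35, beside 0.02 for all tested genes. Summed over the same 35 genes, 44 of these peaks and 95 peaks listed in mK4 only lay around them. A peak near more than 1 of the genes is counted for each. The whole lists hold 4788 and 13243 distinct peaks, so the sums are not shares of them.

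Single matrix genes differed by orders of magnitude. Col1a2, a chain of type I collagen, measured 1093, 884 and 967 CPM in mK3 and 0.352, 0.171 and 0.14 in mK4 (log2 fold change 12.13 ± 0.41, adjusted p = 1.6e-05). Col1a1, the other chain, had a shared peak at an end of the gene and 3 of these peaks nearby, and measured 728, 473 and 550 CPM against 0.139, 0.0525 and 0.02. Lox, which crosslinks collagen and elastin, measured 1583, 1595 and 1537 CPM against 0.256, 0 and 0.28, and had 4 of these peaks in or near it, 2 of them at an end of the gene. Fbn1, the microfibril protein fibrillin 1, measured 1687, 1413 and 1380 CPM against 12.1, 10.2 and 11.7, 132-fold higher in mK3 (adjusted p = 4.4e-06). None of these 4 genes had overlapping libraries, a trait whose share over all tested genes was not taken.

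Contractile and serum response genes showed the same direction. Of 19 tested, 14 were higher in mK3 and 1 lower, beside 21.7% and 19.9% of all tested genes on these chromosomes. Among the 8 with one of these peaks nearby 7 were higher and 0 lower, and among the 11 without one 7 were higher and 1 lower. All 5 with one at the start (Myl9, Tpm2, Cald1, Tagln and Acta2) were higher. Acta2, smooth muscle actin, measured 491, 577 and 558 CPM in mK3 and 0.806, 1.81 and 0.353 in mK4 (log2 fold change 9.09 ± 0.69, adjusted p = 0.000197). Cald1, the actin regulator caldesmon, is expressed in both lines and differed less, at 368, 352 and 254 CPM against 121, 126 and 117. Zyx, the focal adhesion protein zyxin, had 3 of these peaks nearby, and measured 47, 35.4 and 44.6 CPM against 6.06, 7.02 and 7.31.

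For mesenchymal transcription factors the calls split. Of 28 tested, 11 were higher in mK3 and 10 lower, beside 21.7% and 19.9% of all tested genes on these chromosomes. Of the 18 with one of these peaks nearby 10 were higher and 5 lower, and of the 10 without 1 was higher and 5 lower. Meis1, a homeobox factor of renal stroma, had 5 of these peaks nearby and no shared or mK4-only peak, and measured 66.6, 78.8 and 59 CPM in mK3 against 17.5, 16.6 and 17.6. Twist1, a mesenchymal bHLH factor with such a peak at its start, averaged 9.9 ± 1.31 CPM (SD, n = 3) in mK3 and was at 0 in mK4. Foxf1, a forkhead factor of visceral mesenchyme, went the other way, at 0.397, 0.597 and 0.668 CPM against 12.9, 14.3 and 13.3 (adjusted p = 5.79e-05). It had 4 of these peaks within 50 kb, but at its start an mK4-only peak alone. That window also takes in Foxc2, which had 2 of these peaks at its start and averaged 1.13 CPM in mK3 against 0.27 in mK4. The annotation gives no strand for Foxf1 and Foxc2, so for both either end counts as the start. Glis3, with 3 such peaks and 12 listed in mK4 only, measured 196, 202 and 209 CPM against 184, 172 and 191 and was not called (adjusted p = 0.116).

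Growth factor signals of mesenchyme were also mixed. Of 27 tested, 17 were higher in mK3 and 8 lower, beside 21.7% and 19.9% of all tested genes on these chromosomes. Of the 18 with one of these peaks nearby 11 were higher and 5 lower, and of the 9 without one 6 were higher and 3 lower. Grem1, a secreted BMP antagonist needed for kidney development, had its only such peak at the start, and averaged 283 ± 5.97 CPM in mK3 against 2.21 ± 0.0986 in mK4 (adjusted p = 1.6e-06). Sema3d, a secreted guidance factor, averaged 531 ± 3.21 against 1.99 ± 1.55 CPM. Fstl1, a secreted regulator of BMP signals, measured 3673, 3527 and 3563 CPM against 384, 376 and 380, 9.44-fold higher in mK3. Tgfb3 was lower in mK3, at 5.03 ± 0.432 against 18.9 ± 1.82 CPM, and had one of these peaks at an end of the gene. The annotation gives it no strand, so that peak is not shown to be at its 5′ end. Sema3c, with 3 such peaks nearby, was 5.67-fold higher in mK4, at 879, 899 and 764 CPM against 135, 163 and 150 in mK3. Sema3d and Sema3c, 2 members of 1 family with these peaks nearby, thus differed in opposite directions.

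Interferon response genes were higher in mK3 with and without these peaks. Of 28 tested, 25 were higher and 1 lower, beside 21.7% and 19.9% of all tested genes on these chromosomes. Of the 14 with a peak of this kind nearby 13 were higher, as were 12 of the 14 without one, and no member had one at the start. Oas2, which makes the activator of RNase L, measured 213, 194 and 207 CPM in mK3 against 71.4, 67.5 and 70.6. Mx1, an antiviral GTPase, had 3 of these peaks nearby and measured 14.8, 18.1 and 14.4 CPM against 3.3, 2.66 and 2.96.

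AP-1 and YAP-TEAD genes showed no common direction around these regions. Of 16 tested, 5 were higher in mK3 and 3 lower, beside 21.7% and 19.9% of all tested genes on these chromosomes. Of the 10 with one of these peaks nearby, 2 were higher (Atf3 and Amotl2) and 2 lower (Junb and Tead4). Of the 6 without one, 3 were higher and 1 lower. Batf3 was the one member with such a peak at the start, and measured 0.946, 1.07 and 0.91 CPM in mK3 against 0.183, 0.236 and 0 in mK4, with no call (adjusted p = 0.134). Among 20 tested genes of nephron progenitors and nephron epithelium, 4 were higher in mK3 and 11 lower, beside the same shares of all tested genes. None of the 5 with one of these peaks nearby was among the 11. Six2, which keeps nephron progenitors undifferentiated, had 3 of these peaks in or near it, 2 at its start, and trace RNA. It measured 0.411, 0.113 and 0.491 CPM in the mK3 libraries with none in mK4, a difference of at least 15.4-fold (adjusted p = 0.00921 by edgeR's quasi-likelihood test). With a replicate block Six2 was not called (adjusted p = 0.0727). Slc3a1, a subunit of the cystine transporter of the proximal tubule, measured 18.9, 12.1 and 13.2 CPM against 0.22, 0.217 and 0.133.

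More of these peaks around a gene went with a larger share higher in mK3. With none in the gene or within 50 kb, 18.12% of 7318 tested genes were higher; the share was 23.0% with 1, 29.85% with 2, 39.5% with 3 to 4, and 52.94% of 51 genes with 5 or more. The share lower in mK3 went from 21.36% to 7.84% over the same classes. Gene length rose along with the number of peaks, from a median of 18 kb to 139.2 kb. Of 608 genes with at least 3, 40.62% were higher and 14.31% lower, and among genes with a length between the quartiles the share higher was 36.1% of 241. Where a gene had at least 3 of these peaks and no peak listed in mK4 only, 45.64% of 149 genes were higher and 7.38% lower.

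The 10 genes with the most of these peaks differed widely in their RNA. Medag, which promotes adipocyte differentiation, had 10 within 50 kb, 1 shared peak and none listed in mK4 only, and measured 85.1, 98.9 and 88.9 CPM in mK3 against 0.249, 0.355 and 0 in mK4 (log2 fold change 8.82 ± 0.93, adjusted p = 0.000707). Trabd2b, described above, had 9 and no peak of any other kind. Stard13, a GTPase-activating protein, had 9 of these beside 7 shared peaks, and measured 155, 146 and 142 CPM against 39.4, 39 and 38.1. Prkg1, the cGMP-dependent kinase of smooth muscle, had 10 spread over 1201 kb of gene and measured 140, 137 and 139 CPM against 64.9, 80.9 and 70.4. Lrp1, an endocytic receptor, had 7 and as many listed in mK4 only, and was 2.08-fold higher in mK3 (adjusted p = 0.00334). These 5 genes were all higher in mK3, by factors from 1.92 (Prkg1) to at least 3337 (Trabd2b).

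The other 5 were not called higher in mK3. Rbms3, an RNA-binding protein gene with 9 of these peaks and 8 listed in mK4 only, measured 439, 352 and 470 CPM in mK3 and 345, 97.6 and 376 in mK4, where the second library stood apart (adjusted p = 0.354). Rps6ka2, a kinase of the ERK pathway, had 7 and measured 41.9, 37.4 and 44.2 CPM against 43.1, 47.6 and 58.1 (adjusted p = 0.165). Sfi1, Gm11400 and Pisd-ps1 lie side by side on chromosome 11 and share most of their 8 to 9 peaks, so they are 1 locus. Sfi1, a centrosome protein gene, measured 9.17, 9.75 and 13 CPM against 21.8, 22.8 and 20.3 and was 2.03-fold higher in mK4 (adjusted p = 0.00357), and the 2 pseudogenes were not called (adjusted p = 0.223 for Gm11400 and 0.595 for Pisd-ps1). How reads were divided between near-identical copies at this locus is not stated, so these values are uncertain.

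**Figure D4:**
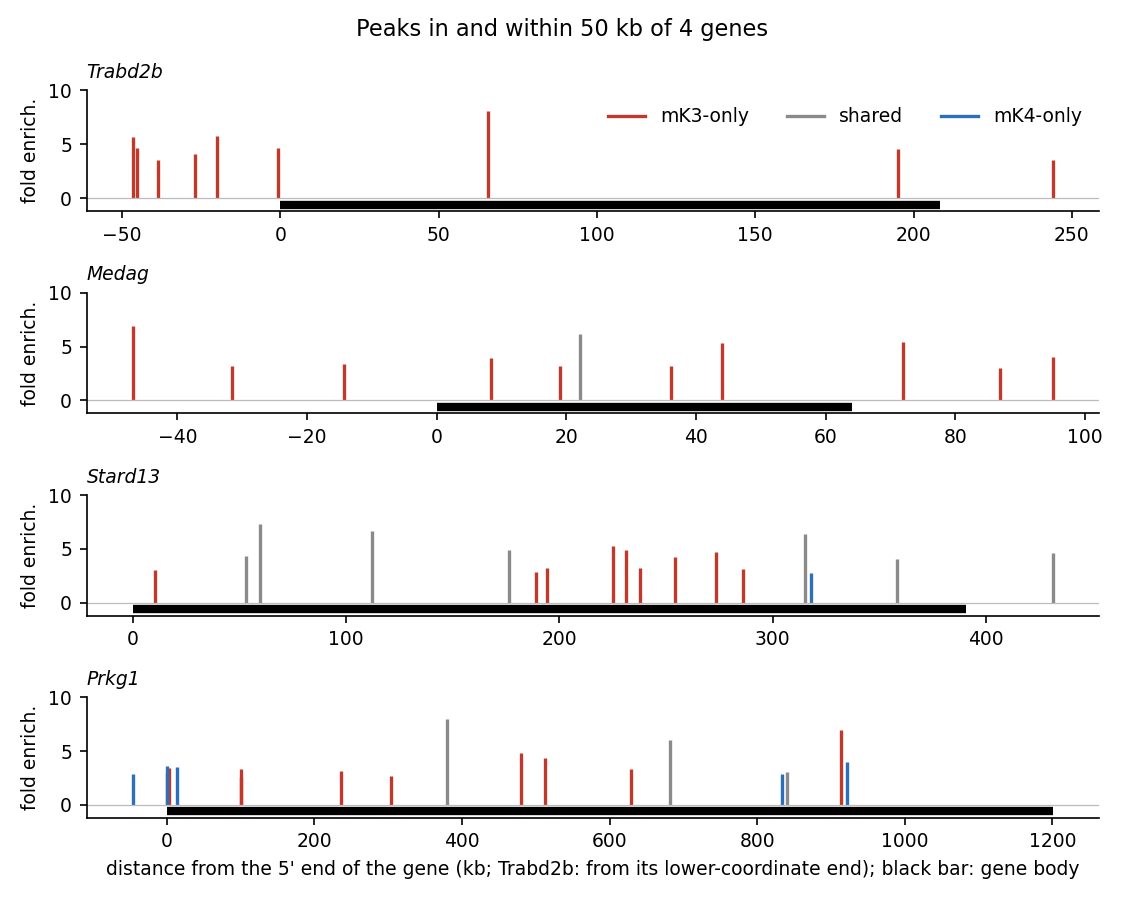
Peaks in and within 50 kb of 4 genes, drawn by distance in kb from the gene's 5′ end (for Trabd2b, whose strand is not given, from its lower-coordinate end), with height the deposited fold enrichment and a black bar for the gene body. Trabd2b has 9 mK3-only peaks (red) and no other peak, Medag has 10 and 1 shared peak (grey), and Stard13 and Prkg1 have shared and mK4-only (blue) peaks among them. The start peaks of Medag at 44.01 kb and of Stard13 at 237.9 kb, and 1 of Prkg1 at 100.9 kb, overlap a RefSeq promoter inside the gene body.

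In places these regions followed each other with no shared peak and no mK4-only peak between them. Of 3495 such runs, 2704 were single peaks and 35 held at least 6, with 258 peaks in all, over 28.2 to 4223 kb. The mK4-only peaks made 244 runs of at least 6, with a longest run of 22. The longest run of mK3-only peaks had 16, on chromosome 5 over 3432 kb around Galnt17, a glycosyltransferase gene that measured 16.7, 13 and 12 CPM in mK3 and 0.0806, 0 and 0 in mK4. Next came 12 around Trabd2b and 11 around Zfp521. Of 80 tested genes that lay at least partly over these runs, 41 (51.25%) were higher in mK3 and 4 (5%) lower, beside 21.7% and 19.9% of all tested genes on these chromosomes.

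Genes that lay at least partly over the runs included several growth factor and adhesion genes, picked here after their values were seen. Pappa, the protease that frees insulin-like growth factors from their binding proteins, lay over a run of 9 and measured 33.5, 35.1 and 38.3 CPM in mK3 and 0 in all mK4 libraries. Ptn, the heparin-binding growth factor pleiotrophin, also lay over a run of 9 and measured 171, 122 and 143 CPM against 0.821, 0.368 and 1.85. Pdgfd, a platelet-derived growth factor, measured 80.4, 109 and 78.2 CPM against 0 in mK4. Cdh11, the mesenchymal cadherin, measured 413, 462 and 436 CPM against 1.27, 4.18 and 0.693. This gene (chr8:102632095-102785493) overlapped only an end of its run (chr8:102783965-103751483). The lines did not overlap in any of these 4 genes, but the choice by value favoured that, and no share over all tested genes was taken. Igf1 (chr10:87858265-87937047) overlapped only an end of a run of 7 (chr10:87024966-87860824), with 2 of these peaks within 50 kb. Its mK3 libraries disagreed, at 1.11, 17.9 and 19.7 CPM against 1.57, 0.532 and 1.54 in mK4. The call of Igf1 (adjusted p = 0.0446 by edgeR's quasi-likelihood test) was lost in 7 of the alternative fits. Over all fits its adjusted p went from 0.000258 to 0.205.

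Chromosomes differed in how many of their mK3 peaks were listed in mK3 only, from 21.39% on chromosome 6 to 36.26% on chromosome 10. The median log2 fold change of all tested genes ran the same way, from −0.14 on chromosome 6 to 0.34 on chromosome 10, with the lowest value, −0.22, on chromosome 8. Across the 15 chromosomes Pearson's r was 0.78, given as a description, since the points share the same pair of ATAC libraries and 6 RNA libraries. Within each of the 15 chromosomes the median of genes with such a peak alone at the start was above that of all tested genes, by 0.19 on chromosome 13 to 2.34 on chromosome 6, where 19 genes had one. With each chromosome's median subtracted, the median log2 fold change of these genes went from 0.49 to 0.42. The part of DNA copy number in these shifts was not tested.

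**Figure D5:**
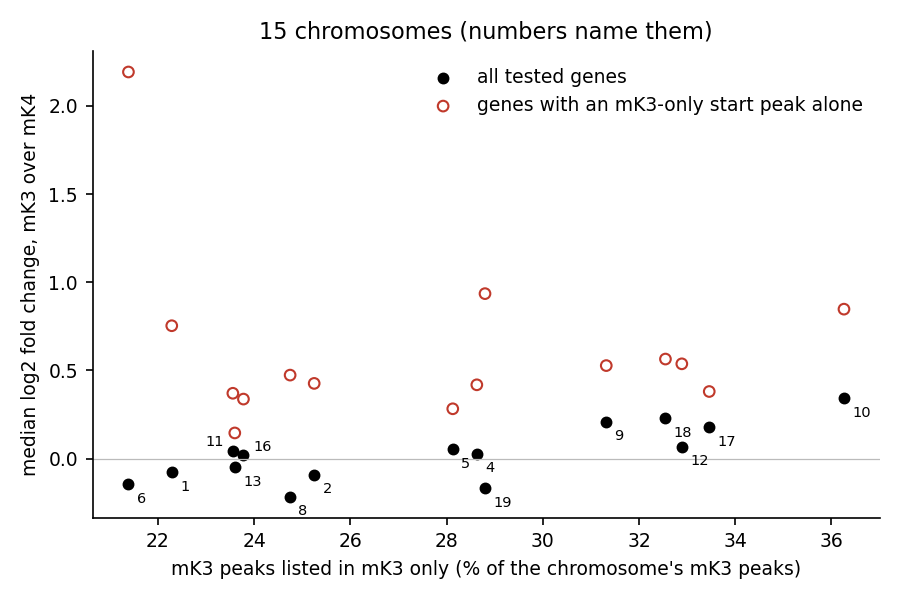
Median log2 fold change (mK3 over mK4) of all tested genes (black) and of genes with an mK3-only peak alone at the start (red circles), against the share of each chromosome's mK3 peaks listed in mK3 only, in percent; each point is 1 of 15 chromosomes. The red circle lies above the black point of the same chromosome in all 15, and chromosome 10 is farthest right, at 36.26%.

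For miRNAs, small RNAs that pair with mRNAs mainly through their seed (bases 2 to 8), nearby regions of this kind did not go with a shift towards mK3. Of 458 tested mature miRNAs, on any chromosome, 35.4% were higher in mK3 and 32.8% lower. Only 254 of them were matched to the 15 chromosomes that hold these regions, and no share was taken over the 254 alone. Of the 41 whose hairpin lay within 10 kb of one of these regions, 13 (31.71%) were higher and 16 (39.02%) lower, and their median log2 fold change was −0.12 against 0.03 for all tested. Both strong increases and strong decreases were among them. The 41 came from 30 hairpins, and arms of neighbouring hairpins share a region, so they are not independent. Counted arms of miR-23b, miR-27b and miR-24-1 share a region and were all lower. So was miR-3074-5p, whose hairpin overlaps that of miR-24-1 on the opposite strand. Its mK3 libraries held 21842, 21211 and 17654 counts, nearly those of miR-24-3p (21864, 21222 and 17667). Both may count the same reads, so miR-3074-5p is not shown to be a separate measurement. Counted arms of miR-199a, miR-214, miR-34b and miR-34c were all higher. The counts thus rest on fewer loci than miRNAs. The mature sequences below are from RefSeq, 5′ to 3′, with the seed in capitals, and show 5 miRNAs higher in mK3 and then 4 lower. The miR-34b and miR-34c 3p arms share 1 seed.
miR-199a-5p: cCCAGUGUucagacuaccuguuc
miR-199a-3p: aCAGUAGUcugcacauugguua
miR-214-3p: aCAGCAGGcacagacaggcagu
miR-34b-3p: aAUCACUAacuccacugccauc
miR-34c-3p: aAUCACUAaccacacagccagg
miR-196a-1-3p: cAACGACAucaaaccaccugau
miR-27b-3p: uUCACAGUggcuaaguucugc
miR-10a-5p: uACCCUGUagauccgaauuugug
miR-99a-5p: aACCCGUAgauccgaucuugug

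The miR-199a and miR-214 genes lie together on chromosome 1, beside chr1:162217361-162217783, a region listed in mK3 only with a fold enrichment of 7.24, with 1 shared and 3 mK4-only peaks also within 10 kb of the miR-199a hairpin, and a second copy of miR-199a on chromosome 9 had 2 such regions within 10 kb. The counts cannot divide miR-199a between its copies. The miR-199a-5p counted 9282, 9734 and 9115 CPM (here of all miRNA counts) in mK3 and 137, 179 and 178 in mK4, 56.9-fold higher (adjusted p = 7.32e-14). The miR-214-3p counted 1880, 2240 and 1978 against 11.5, 9.51 and 9.9 (adjusted p = 1.75e-14). Both are known from fibroblasts and other mesenchymal cells. At the miR-34b and miR-34c genes, which p53 activates, chr9:51103289-51104160 had a fold enrichment of 5.27 with no shared or mK4-only peak within 10 kb; miR-34b-3p counted 242, 260 and 253 against 2.94, 1.63 and 3.2.

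Lower in mK3 were miRNAs whose nearby regions were of the same kind. The miR-196a-1-3p had the largest fitted change of the 41, with 2, 0 and 1 counts in the mK3 libraries, or 0.459, 0 and 0.215 CPM, against 997, 1109 and 1054 CPM in mK4 (log2 fold change −12.08 ± 0.28, adjusted p = 1.75e-14). Its hairpin, in the Hoxb cluster, had 1 region listed in mK3 only, 1 shared and 1 mK4-only peak within 10 kb. The other arm, miR-196a-5p, went the opposite way, at 261, 245 and 211 CPM in mK3 against 105, 103 and 96 in mK4, but a second gene on chromosome 15 also encodes it and the counts cannot divide it. The miR-27b-3p counted 4115, 3851 and 3540 CPM in mK3 against 18692, 14738 and 16095 in mK4, 4.3-fold higher in mK4 (adjusted p = 2e-09), with chr13:63299929-63300228 as the one peak within 10 kb. The miR-10a-5p, of the Hoxb cluster, counted 23750, 23027 and 20022 against 76005, 105119 and 95861. The miR-99a-5p counted 3802, 4894 and 4136 against 14227, 14041 and 14209, with 2 of these regions and 1 shared peak within 10 kb. The let-7c-1 hairpin beside it had the same peaks within 10 kb, and its arms went opposite ways. Its let-7c-5p was called higher in mK3, at 14867, 14727 and 13888 CPM against 9327, 8926 and 8320. Its let-7c-1-3p was called lower, at 0.229, 1.27 and 4.3 CPM against 4.27, 6.39 and 6.24. The miRNAs named here were picked after their values were seen. Apart from let-7c-1-3p, their libraries did not overlap between the lines. That choice favoured such miRNAs, and no share over all tested miRNAs was taken.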

How the data were processed

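RNA of 6 libraries and ATAC-seq of 2 libraries were analysed. The deposited table holds whole-number read counts per gene and per mature miRNA, and the peak list of each line holds fold enrichment (a ratio over background) and −log10 q per peak, as written by the authors' caller. Per the submitters' processing notes the build was mm10 and the tools included STAR 2.7.10a, HTSeq 2.0.2, Bowtie2 and MACS3; caller settings, read depth of the ATAC-seq and how miRNA reads were counted are not stated there or in the labels.

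Genes and miRNAs were fitted separately with edgeR 4.0.16 (filterByExpr, TMM, robust quasi-likelihood test, mK3 against mK4, Benjamini-Hochberg adjustment over all 20405 genes or 458 miRNAs, threshold 0.05) in R 4.3.3. The steps were tested on simulated data. Replicates of a line correlated at 0.973 to 0.9782 (log2 CPM over genes with at least 50 counts in a pair), and each pair differed by more than counting error. Peaks were compared in Python 3.11.15 by a shared base. Gene positions came from RefSeq GRCm38.p6, and 81.6% of tested genes matched by symbol. Of 36314 RefSeq genes on the 15 chromosomes, 20233 have a strand. Intervals and floors cover counting error only.

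The regions and the 7 gene lists were chosen with earlier results of these data known. Named genes were the 12 and the 8 largest fitted log2 fold changes among called genes with a start peak, towards mK3 and mK4 (mean log2 CPM at least 1, libraries not overlapping, no predicted genes or pseudogenes), the 10 with most peaks within 50 kb, and up to 4 per list with most peaks. Beside these, list members with a start peak or a call against their list, Tmem45a, Fam111a, genes over runs, the miRNAs and the 10 kb window were chosen after the values were seen. The alternatives were another scaling, another test (DESeq2 1.42.0), other filters, a replicate block, each library left out, and other thresholds and distances.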

Additional observations from a re-analysis of the deposited data

How the results depend on the processing

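In each alternative run for the genes near these peaks, the share higher in mK3 stayed above the share lower, and medians stayed above 0. With both lists at −log10 q of at least 5 or 10, 3143 and 1744 peaks were listed in mK3 only, and 908 of the 4788 reached 10 themselves. Percent higher in mK3 among genes with any such start peak was 43.87 with DESeq2, 32.56 with the replicate block, 55.85 for start peaks at −log10 q of at least 10, 41.29 with an mK4 peak within 500 bases counted as shared, and 33.72 to 35.86 with a library left out. Percent lower was 19.02 among genes with at least 1 CPM in every library, 11.27 with the block, 9.57 for the stronger peaks, and 10.79 to 12.93 with a library left out. For genes with such a peak alone, percent higher was 50 with DESeq2, 38.5 at 1 CPM, 38.8 with the block and 40.39 to 43.03 with a library left out, and percent lower was 16.07 at 1 CPM and 8.11 to 9.88 with a library left out. For genes with at least 3 nearby, percent higher was 46.71 with DESeq2, 35.53 with the block, 47.76 within 20 kb, 32.36 within 100 kb, 50 of 22 genes for the stronger peaks, 36.1 between the quartiles of gene length, and 36.35 to 37.66 with a library left out. The replicate block gave 3129 genes higher and 3281 lower in all; same-numbered libraries correlated at −0.0242 to 0.0112 in their deviations, so the numbers were not taken as pairs.

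Of 890 refits of genes and miRNAs named by the rule or in the text, 877 kept their direction and their side of the threshold. Emx2, not called, had log2 fold changes from −0.51 to 0.01 with a library left out, and was above 0 only without mK3 replicate 1. Calls were lost 7 times for Igf1 and 1 time for Six2 (with the block, adjusted p = 0.0727), and gained 3 times for Mafk and 1 time for Batf3. Among miRNAs, 10 were higher and 10 lower of 27 with the hairpin window at 5 kb, and 24 and 24 of 76 at 25 kb. The miRNA windows, the genes with a strand alone and the centring on chromosomes were chosen after seeing the data. The depth of the ATAC libraries is unknown, so how far it sets which peaks are listed was not tested.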
